A study of Mus musculus with 2 samples.

Results

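The genes described here are 7 members of the mouse MS4A family that are known from myeloid cells, namely Ms4a4a, Ms4a4b, Ms4a4c, Ms4a6b, Ms4a6c, Ms4a6d and Ms4a7. They were chosen by name, and a probe was taken for a gene when it was not a control and carried a RefSeq accession of that gene. By this rule 6 of the 7 genes had a probe, with 8 probes in all, out of 20660 named genes on the array. Ms4a4a had no probe under the rule and its level was not analysed here.

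RNA came from bone marrow-derived macrophages, which are cells grown from femoral marrow with the growth factor M-CSF. The groups were Capn6-Ko, from male mice deficient for calpain-6, an unusual calpain without protease activity, and Capn6-Wt, from male calpain-6 wild-type mice. Both cultures had 10% serum, 50 ng/mL M-CSF and 10 ng/mL of the inflammatory cytokine TNF-α, and unbound cells were washed off. The time in culture is day 3 by one label and day 4 by another, and the series text says that cells of 4 mice were pooled, without stating if that was for each group. No source used here gives strain, age or the structure of the deficient allele. There was 1 array of pooled cells for each group, so every value describes these 2 RNA pools and no p-value is given. In such bulk RNA, fewer cells of a type and less RNA per cell cannot be told apart.

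MS4A proteins cross the cell membrane several times and have both ends inside the cell. They associate with receptors at the cell surface and in endosomes, and their genes lie side by side in a cluster on mouse chromosome 19, where local duplication has given several close copies. The best known members are CD20 of B cells, encoded by Ms4a1, and the β chain of the high-affinity IgE receptor of mast cells, encoded by Ms4a2. In macrophages the family is used to tell subsets apart, and Ms4a7 in the mouse marks macrophages at the borders of the brain and in several tissues.

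The values are processed signals, the background-subtracted brightness of a spot on a linear scale. The 75th percentile of this signal over spots that are not controls was 372 on the Capn6-Ko array and 377 on the Capn6-Wt array. The median local background was 29 for Capn6-Ko and 27 for Capn6-Wt. The lowest signal that the scanner software called well above background was 14.0 in Capn6-Ko and 16.6 in Capn6-Wt. The arrays shared a slide, and no spot was saturated. The probe of the targeted gene, Capn6, read 8.65 in Capn6-Ko and 3.93 in Capn6-Wt and was not well above background on either array, so it does not check the labels. Differences are log2 Capn6-Ko minus Capn6-Wt after division by the 75th percentile. The ± is the SD expected from how far replicate spots of a probe scatter within an array. Mice, culture and RNA extraction add error that it leaves out.

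Macrophage genes were bright in both pools, as far as the label could be checked. The probe of Lyz2, the lysozyme of myeloid cells, read 164586 in Capn6-Ko and 167573 in Capn6-Wt. The brightest probe of Csf1r, the M-CSF receptor, read 131530 in Capn6-Ko and 115464 in Capn6-Wt. The subset markers Cd163 and Lyve1, on the same list, were not well above background in either pool.

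All 8 probes of the 6 myeloid MS4A genes were well above background on both arrays. The share over all spots that are not controls was 52.8% in Capn6-Ko and 51.7% in Capn6-Wt. A bright set of 4 member probes was for Ms4a7, Ms4a6c, Ms4a6d and 1 probe of Ms4a4c. A dim set of 4 was for Ms4a4b, Ms4a6b and the other 2 probes of Ms4a4c. How bright a probe is depends on the probe as well as on the transcript, so the signals do not rank the genes. Over the 6 genes the median difference was 0.071, with 3 genes higher and 3 lower in Capn6-Ko, and the values ran from -0.11 to 0.38. Over all 12875 measured genes the median was -0.0056, and 47.8% were above 0.

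**Figure D1:**
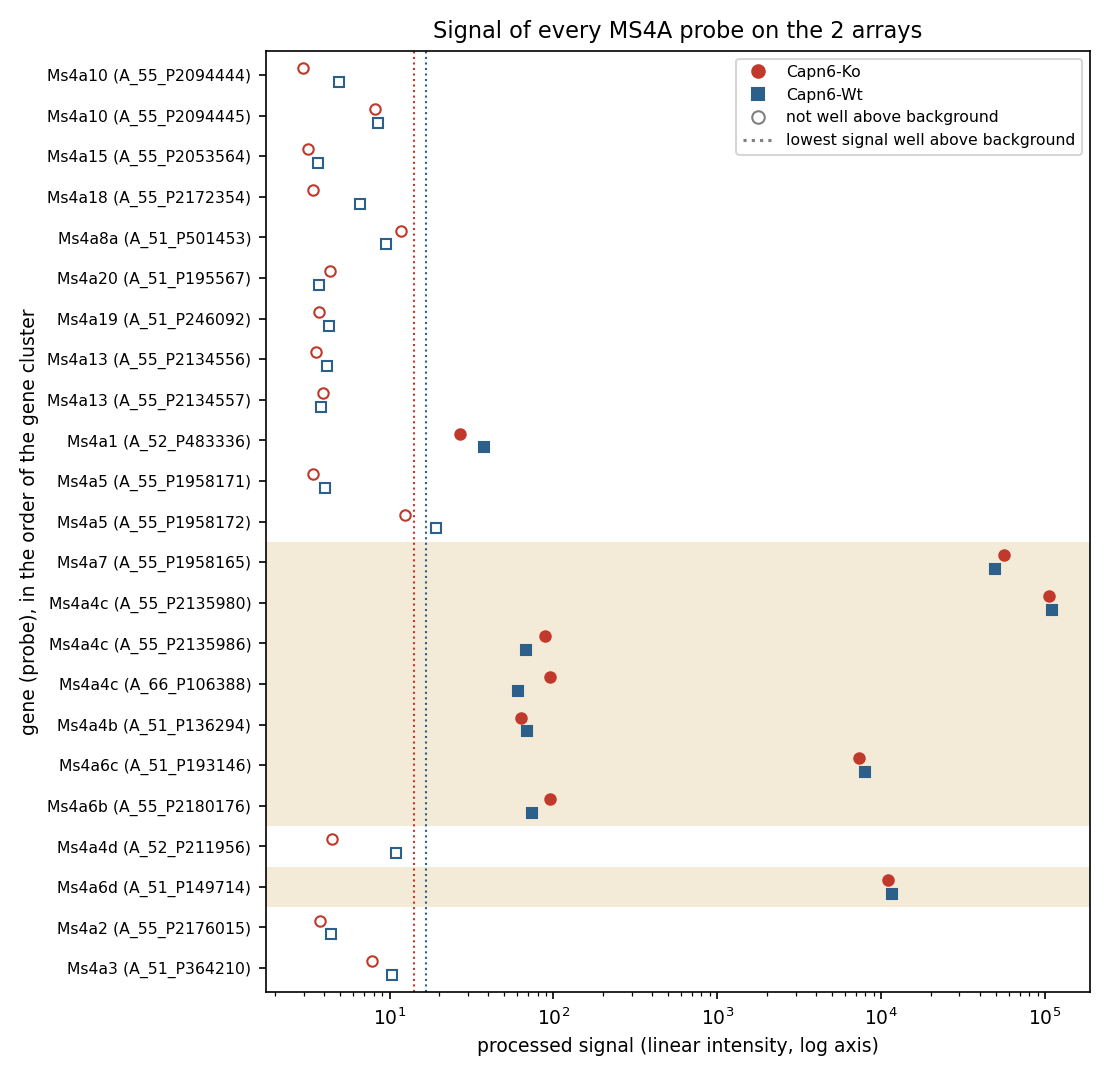
Processed signal (log axis) of every MS4A probe in the order of the gene cluster, with circles for Capn6-Ko and squares for Capn6-Wt, open where the probe was not well above background. The shaded rows hold the 6 myeloid genes, whose signals run from 63.4 to 105503 in Capn6-Ko and from 60.7 to 110742 in Capn6-Wt, while all other MS4A probes except that of Ms4a1 are open.

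Ms4a7 was higher in the Capn6-Ko pool. Its single probe (A_55_P1958165) read 56094 in Capn6-Ko and 49548 in Capn6-Wt. The difference was 0.20 ± 0.082, or 1.15-fold. It kept this direction under all 8 alternative settings, between 0.18 and 0.26, but most of them could not change a single bright probe. The settings that changed its rounded value were the median centre (0.26), quantile normalization (0.18) and normexp followed by quantile normalization (0.19). Among 2135 named probes of like brightness, 90% lay between -0.13 and 0.13, and Ms4a7 was the 38th from the highest. The error that the scanner software itself gives each spot is wider and comes to ± 0.20 for this difference, slightly more than the difference.

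The macrophage genes beside Ms4a7 stood at similar values, and their part in the Ms4a7 difference was not tested. Csf1r was at 0.20 ± 0.046 over 3 probes, and Adgre1, which encodes the macrophage surface protein F4/80, at 0.19 ± 0.058 over 2 probes. Of 19 measured genes on the macrophage identity list 16 were higher in Capn6-Ko, while 47.8% of all measured genes were above 0. Their median was 0.15, from -0.045 for Mrc1, the mannose receptor, to 0.84 for Folr2, a folate receptor of macrophages. The summed signal of this list was 623392 in Capn6-Ko and 602666 in Capn6-Wt, before scaling. Stromal fibroblast genes stood the other way, with 14 of 15 measured genes lower, a median of -0.52 and summed signals of 31866 in Capn6-Ko and 47485 in Capn6-Wt. The lowest was Tagln, an actin-binding protein of contractile cells, at -0.61 ± 0.082. The highest was Thy1, a surface marker of fibroblasts and T cells, at 0.17 ± 0.33.

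Ms4a6d, whose protein binds the macrophage receptor VSIG4, differed by less than its spot error. Its probe (A_51_P149714) read 11002 in Capn6-Ko and 11581 in Capn6-Wt, a difference of -0.056 ± 0.082. When the arrays were centred on their medians the value was 0.0090, so its direction is not settled. Vsig4 itself, with signals of 2297 in Capn6-Ko and 2031 in Capn6-Wt, differed by 0.20 ± 0.085.

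For Ms4a6c the difference was about as large as its spot error. Its probe (A_51_P193146) read 7372 in Capn6-Ko and 7967 in Capn6-Wt, a difference of -0.094 ± 0.082. This is within the range of -0.13 to 0.13 that held 90% of probes of like brightness. The value was -0.029 with the arrays centred on their medians and -0.036 with normexp followed by quantile normalization, both smaller than the spot error. Ms4a6c minus Ms4a7 came to -0.29 ± 0.12, and Ms4a6d minus Ms4a7 to -0.25 ± 0.12. Each gap exceeded its spot error, but by the software's error, ± 0.20 for every one of these 3 probes, none of their differences stood out from 0.

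Ms4a6b was higher in the Capn6-Ko pool, from a dim probe. The probe (A_55_P2180176) read 94.8 in Capn6-Ko and 73.8 in Capn6-Wt. Before background subtraction the median pixel value of the spot was 125 in Capn6-Ko, over a local background of 23, and 114 in Capn6-Wt, over 24. The difference was 0.38 ± 0.17, or 1.30-fold, and the software's error is ± 0.23. With normexp background correction, offset 50, followed by quantile normalization, the value was 0.16.

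Ms4a6b and Ms4a6c are close copies whose start-site regions are the most alike among the 6 members with a promoter window, which is why those regions are shown here. Ms4a6d has no window in the table and was not compared. The sequences are the 250 bases before the start in the RefSeq promoter windows of GRCm38.p6, 5′ to 3′ along the gene. Capitals mark the longest exact run that both share, 48 bases.
Ms4a6b, chr19:11518309-11518558, + strand: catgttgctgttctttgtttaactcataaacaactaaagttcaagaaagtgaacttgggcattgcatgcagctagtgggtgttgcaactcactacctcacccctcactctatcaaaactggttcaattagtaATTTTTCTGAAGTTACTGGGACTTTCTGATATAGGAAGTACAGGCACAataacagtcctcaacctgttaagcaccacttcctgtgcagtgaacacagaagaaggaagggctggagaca
Ms4a6c, chr19:11469118-11469367, + strand: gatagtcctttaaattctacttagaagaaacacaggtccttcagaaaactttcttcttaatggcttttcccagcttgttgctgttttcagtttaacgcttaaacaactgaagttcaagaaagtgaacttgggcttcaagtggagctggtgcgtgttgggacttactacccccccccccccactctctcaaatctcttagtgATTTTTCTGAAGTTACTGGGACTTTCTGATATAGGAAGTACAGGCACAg

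The full windows also hold 50 bases after the start, and over the 220 bases that align they were identical at 189, or 85.9%. The shared run ends at position -71 from the start in Ms4a6b and at -2 in Ms4a6c. It holds AGGAAGT, a sequence that ETS-family factors such as PU.1 recognise. On either strand this motif occurred at 2 places in the Ms4a6b window, 1 of them outside the shared run, and at 1 place in the Ms4a6c window. No other member's window held this exact sequence, and 9.35% of 32851 RefSeq promoter windows of the same length did. Other sequences that ETS factors bind were not searched, so the other windows may still hold ETS sites. On the arrays the difference was 0.38 for Ms4a6b and -0.094 for Ms4a6c, a gap of 0.47 ± 0.19. The Ms4a6c value was about as large as its spot error and smaller than the software's error of ± 0.20. The software's error for Ms4a6b was ± 0.23. With normexp followed by quantile normalization the values were closer, at 0.16 for Ms4a6b and -0.036 for Ms4a6c.

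Ms4a4c gave unlike answers from its 3 probes, which carry the same accession. The bright probe (A_55_P2135980) read 105503 in Capn6-Ko and 110742 in Capn6-Wt, a difference of -0.052 ± 0.082. A dim probe (A_66_P106388) read 95.7 in Capn6-Ko and 60.7 in Capn6-Wt, a difference of 0.68 ± 0.17, or 1.60-fold. The other dim probe (A_55_P2135986) read 89.4 in Capn6-Ko and 68.2 in Capn6-Wt, a difference of 0.41 ± 0.17, or 1.33-fold. Both dim probes were thus higher in Capn6-Ko by more than their spot error and the software's error of ± 0.23 and ± 0.22, while the bright one was not.

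The mean over the 3 probes was 0.34 ± 0.084, but it became -0.052 when only the brightest probe was used. Of all 3331 genes with more than 1 measured probe, 20, or 0.600%, had a range of probe differences at least as wide as that of Ms4a4c. The median range was 0.10. These genes were not matched to Ms4a4c for level or number of probes, so this share does not show how unusual its range is. The SD of differences was 0.24 among named probes of like level to its dim probes, and 0.083 among those like its bright probe. No source used here gives the stretch of the transcript that each probe matches, or whether it also matches another MS4A copy. The pixel medians behind the A_66_P106388 values were 132 in Capn6-Ko and 108 in Capn6-Wt, over a local background of 26 on both arrays.

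Ms4a4b, known as a membrane protein of T cells, differed by less than its spot error. Its dim probe (A_51_P136294) read 63.4 in Capn6-Ko and 69.1 in Capn6-Wt, a difference of -0.11 ± 0.17. Of 18 T and NK cell genes on the list 10 were measured, beside 12875 of the 20660 named genes on the array. The list had a median of 0.074 and summed signals of 3537 in Capn6-Ko and 3547 in Capn6-Wt, before scaling. The values ran from -0.11 ± 0.093 for Cd3e, a chain of the T cell receptor complex, to 0.36 ± 0.33 for Cd6. The complex members Cd3d and Cd3g were not well above background in either pool. The brightest probe of Cd4 read 2496 in Capn6-Ko and 2523 in Capn6-Wt, and that of Nkg7 2381 in Capn6-Ko and 2276 in Capn6-Wt.

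Ms4a4b and Ms4a4c are the next most alike pair among the members with a window, and their start-site regions are shown because Ms4a4c has the probes that differ most. The sequences are again the 250 bases before the start from RefSeq's GRCm38.p6 windows, and capitals mark their longest shared run, 20 bases.
Ms4a4b, chr19:11443308-11443557, + strand: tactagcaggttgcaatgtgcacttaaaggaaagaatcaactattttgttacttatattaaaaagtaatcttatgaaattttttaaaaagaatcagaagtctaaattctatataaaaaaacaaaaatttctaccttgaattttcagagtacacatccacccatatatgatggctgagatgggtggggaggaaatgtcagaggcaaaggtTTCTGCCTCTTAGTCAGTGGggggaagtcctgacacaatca
Ms4a4c, chr19:11407411-11407660, + strand: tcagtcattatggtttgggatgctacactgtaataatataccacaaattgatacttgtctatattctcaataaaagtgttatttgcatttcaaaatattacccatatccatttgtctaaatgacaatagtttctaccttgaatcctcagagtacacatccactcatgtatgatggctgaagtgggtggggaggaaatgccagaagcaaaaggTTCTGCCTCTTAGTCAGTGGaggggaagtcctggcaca

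These windows were identical at 228 of 282 aligned bases, or 80.9%. The motif of the interferon-stimulated response element, GAAANNGAAA, was searched on either strand because interferon genes were higher in the Capn6-Ko pool. It was in none of the 7 windows of the 6 members that the table holds, and in 3.44% of all windows. The STAT motif TTCNNNGAA was in none of the 7 either, against 8.3% of all windows. At shares this low, none in 7 windows does not set the members apart. Variants of these motifs were not searched, so the windows may still hold such elements. The AP-1 motif TGANTCA, on either strand, was in the Ms4a4b window, at base 23 after the start, and in the window of the second start of Ms4a7, against 7.81% of all windows. The TATA-box sequence, TATAAA, was matched in the Ms4a4b window alone, at -140, against 13.6% of all windows. This is a match of bases, and whether it serves as the TATA box of the gene was not tested. No match of one motif overlapped a match of another. Outside the pairs shown, identity between member windows was at most 67.9%, with no shared run longer than 9 bases.

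**Figure D2:**
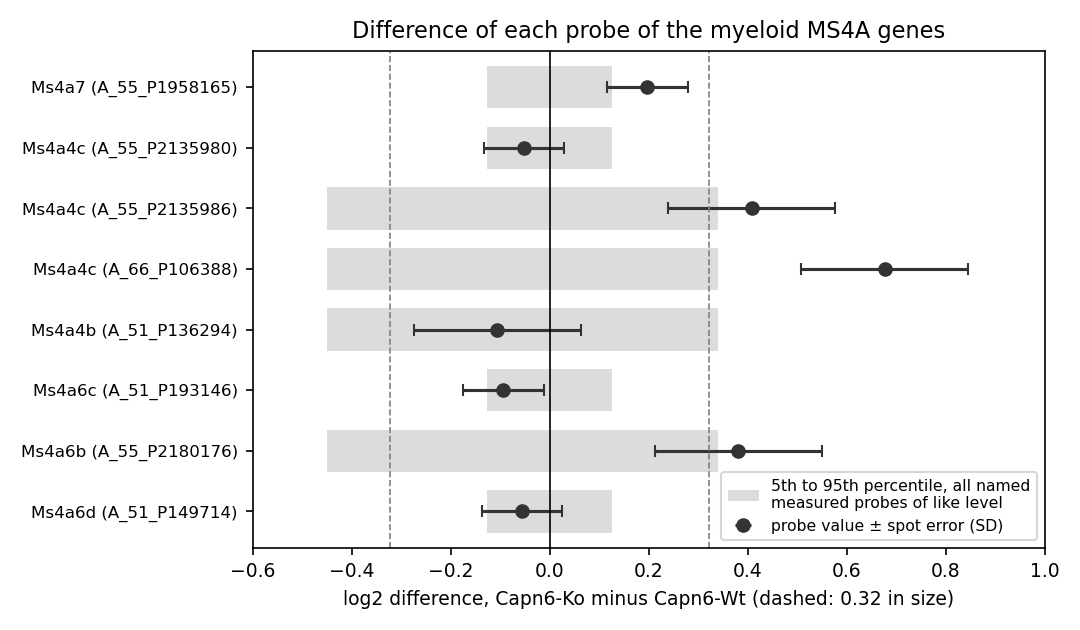
Log2 difference, Capn6-Ko minus Capn6-Wt, of each probe of the myeloid MS4A genes, with the spot error (SD) as a bar and, in grey, the 5th to 95th percentile of all named measured probes of like level. Ms4a7 at 0.20, both dim probes of Ms4a4c at 0.68 and 0.41, and Ms4a6b at 0.38 lie above the grey band, and the other 4 probes lie within it.

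A difference of at least 0.32 in size, which is 25% higher or 20% lower, was taken as a fixed mark. By it, 2 of the 6 measured genes, Ms4a4c and Ms4a6b, were higher in Capn6-Ko and none was lower. Over all 12875 measured genes 2.64% were past this size in the higher direction and 5.53% in the lower. Both genes reach it through dim probes. Of the 4 dim member probes 3 were past 0.32 in the higher direction, against 5.89% of 2630 named probes of like level, of which 10% were past it in the lower direction. None of the 4 bright probes passed the size, against 0.375% higher and 0.328% lower of 2135 probes of like level. Only 1 dim Ms4a4c probe, and no mean over the probes of a member, reached 1.5-fold, a size that 0.334% of measured genes passed in the higher direction and 1.26% in the lower. The 3 dim probes are not independent genes, since 2 of them belong to Ms4a4c. With normexp background correction followed by quantile normalization, neither gene was past 0.32, while with quantile normalization alone both were.

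**Figure D3:**
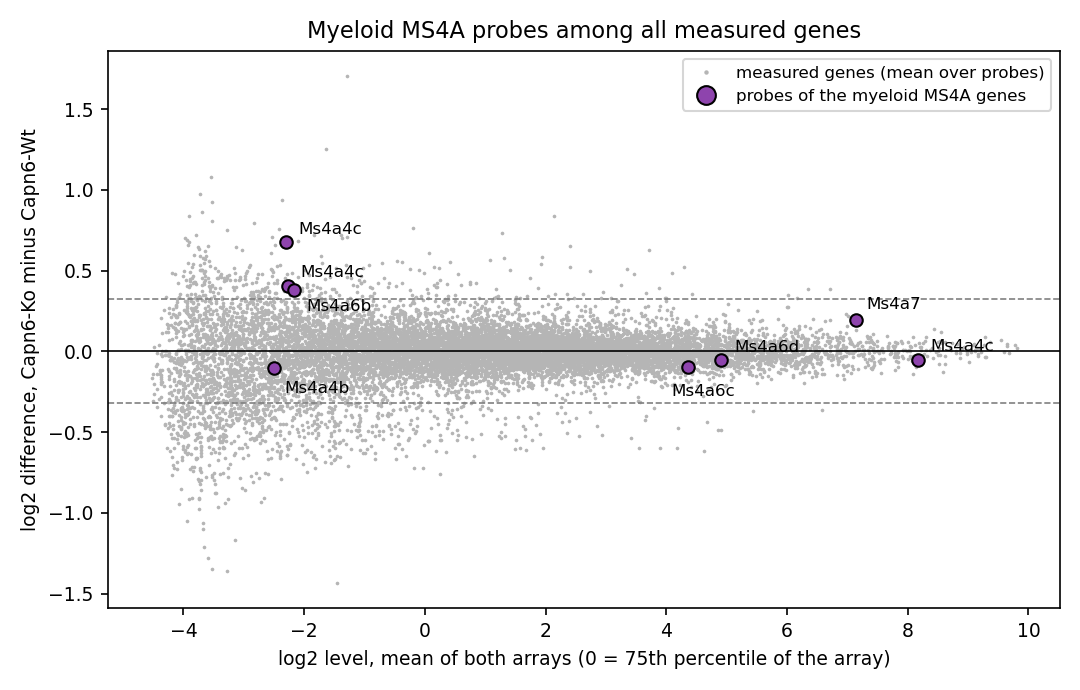
Log2 difference against mean log2 level of all 12875 measured genes (grey) and of the 8 probes of the myeloid MS4A genes (purple), with dashed lines at 0.32 in size. The 3 probes above the upper line lie at the dim end, where all genes spread widely, and the 4 bright probes lie where most genes are close to 0.

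The rest of the family was mostly not detected, while 12875 of the 20660 named genes on the array were measured. Of the other 14 MS4A genes in the RefSeq table of GRCm38.p6, 12 had a probe, and Ms4a1 alone was well above background. Its probe read 26.8 in Capn6-Ko and 37.8 in Capn6-Wt, a difference of -0.48 ± 0.33 close to the detection limit, where the software's error is ± 0.32. The B cell genes measured with it were 6 of 7 lower, while 47.8% of all measured genes were above 0. Of 1969 named probes of like level to Ms4a1 and Fcer2a, 43.2% were above 0 and 21.2% were past 0.32 in the lower direction. The B cell genes had a median of -0.12 and summed signals of 1771 in Capn6-Ko and 1850 in Capn6-Wt, before scaling. They ran from -0.52 ± 0.33 for Fcer2a to 0.18 ± 0.12 for Cd79b. Of the lower values only that of Fcer2a exceeded its spot error, and its signals were 19.7 in Capn6-Ko and 28.6 in Capn6-Wt. The B cell marker Cd79a was not well above background in either pool. The part of B cells in the Ms4a1 difference was not tested.

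The remaining 14 probes of that group, for 11 genes, read 2.98 to 12.4 in Capn6-Ko, with a median of 3.85, and 3.67 to 19.1 in Capn6-Wt, with a median of 4.65. None was well above background, so no fold is given. Ms4a3, which marks granulocyte and monocyte progenitors, read 7.86 in Capn6-Ko and 10.3 in Capn6-Wt. Ms4a2 read 3.77 in Capn6-Ko and 4.37 in Capn6-Wt, and Ms4a4d, which lies between Ms4a6b and Ms4a6d, read 4.46 in Capn6-Ko and 11.0 in Capn6-Wt. Ms4a8a read 11.7 in Capn6-Ko and 9.47 in Capn6-Wt. The probes of Ms4a10 and Ms4a13 read at most 8.14 in Capn6-Ko and 8.44 in Capn6-Wt. Of the probes of Ms4a5, 1 had the highest reading, 12.4 in Capn6-Ko and 19.1 in Capn6-Wt. Ms4a15, Ms4a18, Ms4a19 and Ms4a20 read at most 4.35 in Capn6-Ko and 6.61 in Capn6-Wt. Ms4a12 and Ms4a14 had no probe under the rule.

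Markers of mast cells, the cells of Ms4a2, were also mostly not detected. Of 12 listed, 11 had a probe and 2 were measured, against 12875 of 20660 named genes on the array. These 2 were Kit at -0.050 ± 0.12 and Tpsb2 at -0.080 ± 0.093. Neutrophil and granulocyte progenitor genes, the setting of Ms4a3, had a median of -0.057 over 12 measured genes, from -0.26 for Mmp9 to 0.33 for Ltf. Dendritic cell genes had a median of 0.049 over 6, from -0.33 ± 0.33 for Irf4 to 0.29 ± 0.093 for Batf3. These medians were close to 0.

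The detected MS4A genes lay in 1 part of the cluster, with other genes between most of them. In the order of genes on chromosome 19 the 21 MS4A genes form a single cluster, and all those well above background lay in the stretch from Ms4a1 to Ms4a6d. Within this stretch Ms4a5 and Ms4a4d were not well above background, and Ms4a14 and Ms4a4a had no probe under the rule. Gm8369, which lies between Ms4a6c and Ms4a6b, read 13.5 in Capn6-Ko and 11.6 in Capn6-Wt and was not either. It is named after its values were seen. Of the 10 nearest genes with a probe outside the cluster, 5 on each side, 4 were measured. These were Tmem109 (-0.0037 ± 0.026), the splicing factor Prpf19 (-0.059 ± 0.025), Ccdc86 (-0.077 ± 0.076) and the mitochondrial ribosome gene Mrpl16 (-0.10 ± 0.076). Zp1, Ptgdr2, Oosp1, Oosp2, Oosp3 and Cblif were not well above background on either array.

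Tmem176a and Tmem176b, relatives of the MS4A family that lie elsewhere, were detected in both pools. The probe of Tmem176a read 169 in Capn6-Ko and 209 in Capn6-Wt, a difference of -0.29 ± 0.12. Tmem176b, with a probe at 2801 in Capn6-Ko and 2828 in Capn6-Wt and another at 178 in Capn6-Ko and 181 in Capn6-Wt, was at -0.0022 ± 0.072.

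Genes on a list of MS4A partners, other receptors and signalling proteins mostly had differences close to 0. No source used here shows that each of them acts with an MS4A protein. Of 15 on the list 13 were measured, with 9 higher and 4 lower, while 47.8% of all measured genes were above 0. The median was 0.029 and none was past 0.32. The share past that size in either direction was 8.17% of all measured genes and 1.57% of those above the median level, so a count of 0 among 13 is near the background. Trem2, a lipid receptor of macrophages whose shed form is tied to the MS4A locus in humans, read 145682 in Capn6-Ko and 136011 in Capn6-Wt, a difference of 0.12 ± 0.082. Its adaptor Tyrobp was at 0.048 ± 0.082, and Fcer1g, the shared γ chain of Fc receptors, at 0.051 ± 0.082. Fcgr1, the high-affinity IgG receptor, was the highest at 0.27 ± 0.078, beside Fcgr2b at 0.027 ± 0.028 and Fcgr3 at -0.020 ± 0.082.

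The kinase Syk, which acts downstream of these receptors, was at 0.029 ± 0.082, the phospholipase Plcg2 at 0.018 ± 0.082 and the adaptor Card9 at 0.12 ± 0.17. Cd300lf, an inhibitory receptor of myeloid cells, was at -0.16 ± 0.048, with its 3 probes at -0.15, -0.16 and -0.18. Tnfrsf18, which encodes GITR, a costimulatory receptor on T cells that Ms4a4b associates with, was the lowest at -0.29 ± 0.33, from signals of 19.3 in Capn6-Ko and 23.9 in Capn6-Wt. Fcer1a, the IgE-binding chain that pairs with the Ms4a2 protein, was not well above background, and Clec7a, the partner of MS4A4A, had no probe under the rule.

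**Figure D4:**
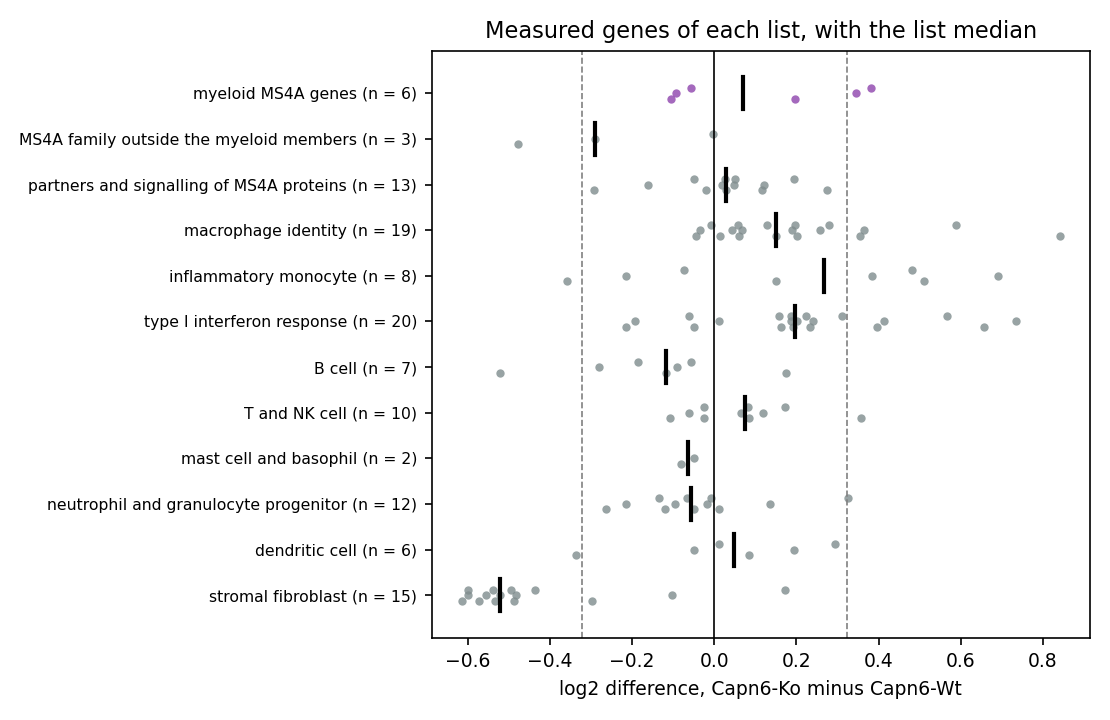
Log2 difference, Capn6-Ko minus Capn6-Wt, of each measured gene of the myeloid MS4A group (purple) and of 11 other lists (grey), with a black bar at each median and dashed lines at 0.32 in size. As means over probes, 3 MS4A genes lie at or below -0.056 and 3 at or above 0.20. This depends on the setting: Ms4a4c was at -0.052 by its brightest probe, and Ms4a6d at 0.0090 with the median centre. The stromal list lies mostly near its median of -0.52.

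Monocyte and interferon genes had higher medians in Capn6-Ko, and their part in the MS4A values was not tested. Of 20 measured type I interferon genes 16 were higher in Capn6-Ko, with a median of 0.20, and 5 were past 0.32 in that direction. They ran from -0.21 ± 0.33 for Ifit2 to 0.73 ± 0.078 for the antiviral gene Oas2. Over all measured genes 47.8% were above 0 and 2.64% past 0.32 in the higher direction. The summed signal of that list was 26244 in Capn6-Ko and 24014 in Capn6-Wt, before scaling. Of 8 measured inflammatory monocyte genes 5 were higher, and their median was 0.27, from -0.36 for Plac8 to 0.69 for the chemokine receptor Ccr2, with 4 past 0.32 in the higher direction, against that 2.64%, 1 in the lower, against 5.53% of all measured genes, and summed signals of 60240 in Capn6-Ko and 48776 in Capn6-Wt. Of the members, Ms4a6b at 0.38, Ms4a7 at 0.20 and the mean of Ms4a4c at 0.34 had the sign of both list medians, while Ms4a4b at -0.11, Ms4a6c at -0.094 and Ms4a6d at -0.056 did not. Of the Ms4a4c probes, those at 0.68 and 0.41 had that sign and the one at -0.052 did not.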

How the data were processed

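Per the file headers, the deposited values are spot intensity, linear, from Agilent Feature Extraction 10.10.1.1 run by the authors on 1-colour Cy3 arrays annotated on mm9. The processed signal is background-subtracted within the array and not scaled between arrays. The authors' value table is that intensity times 1 constant per array, 2.42 for Capn6-Ko and 2.39 for Capn6-Wt, with column medians of 50.7 and 53.0, uncentred. How the constants were chosen is unknown here.

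Control and outlier spots (136 outliers in Capn6-Ko, 161 in Capn6-Wt) were left out, the log2 signal was taken relative to the array's 75th percentile, and a probe's spots were averaged. Measured probes are those for which the majority of its spots passed the scanner's background test on each array, and a gene is the mean of its measured probes. Of 55678 probes, 27232 matched a symbol in the RefSeq table of GRCm38.p6, used for names and gene order only. Spot error came from 263 probes of 10 spots, over 8 bins of level; like level means the same bin. The single array per group limits the precision.

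The members and gene lists were chosen with earlier results of these data known. Named are all MS4A genes with a probe, Tmem176a and Tmem176b, and the measured genes of the partner and signalling list. Also named are the 5 nearest genes on each side, and the highest and lowest of each other list. Other genes, such as undetected cell type markers, Csf1r, Adgre1, Lyz2, Cd4 and Nkg7, were chosen after their values were seen. With 2 arrays no gene can be named for a like pattern across samples. For normexp, which was followed by quantile normalization, the planned mean signal was replaced by the median signal that the files hold. The alternatives were 2 other scalings, normexp with quantile normalization, the authors' table, 2 other filters, the brightest probe and outlier spots kept. Python 3.11.15, numpy 2.4.6, pandas 2.3.3, Biopython 1.88, R 4.3.3 and limma 3.58.1 were used, and the scripts were tested on simulated data.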

Additional observations from a re-analysis of the deposited data

How the results depend on the processing

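Of 46 values of single members under the 8 alternatives, 43 kept their sign. Many of them could not change it, because every measured member except Ms4a4c has 1 probe. The filters, the brightest-probe choice and kept outlier spots left such a probe unchanged wherever it was kept. The authors' table is the same signal times 1 constant per array and hardly moved any value. Ms4a4c was at -0.052 with the brightest probe or with only probes above the median level, and at 0.17 with normexp followed by quantile normalization, where Ms4a6b was at 0.16. That setting changes background correction and scaling together. The normexp offset, 50, is close to the signals of the dim probes. Ms4a6d was at 0.0090 with the median centre. The median of the members, 0.071, became 0.14 with the median centre and -0.054 with the brightest probe or only bright probes. The number of members past 0.32, 2, became 1 with the brightest probe, 0 with normexp and quantile normalization together, and 0 with only bright probes, which leave out Ms4a4b and Ms4a6b. Genes past 0.32 over the whole array were 1052, and 268 with normexp and quantile normalization, 182 with only bright probes and 4257 of 20660 with no filter. No paired analysis was possible because each group has 1 array, and no replicate could be left out. Precision is limited by the dim signals of 4 probes and by the single pool per group.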
